A study of Mus musculus with 6 samples.

Results

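The genes described here encode the nuclear pore and the carriers that pass through it: nucleoporins, importins, exportins and the GTPase Ran. They were chosen by name from the deposited RNA-seq table. The prefixes were Nup, Kpna, Kpnb, Ipo, Tnpo and Xpo (Xpo1, Xpo4, Xpo6, Xpo7 and Xpot), with Cse1l, Ndc1, Tpr and Ran added. The naming rule itself used no measured value, but earlier results of these data were known when the genes were chosen. The rule found 45 of 23235 named entries (0.194%). The study asked how gene programs change when FGFR1 acts in the nucleus during retinoic acid (RA) induced differentiation, so the entry of proteins into the nucleus is a step on which its model rests. RNA-seq, in which mRNA is copied to cDNA and counted as sequenced fragments, was run on 2 groups of 3 samples. Both groups were E14Tg2a cells, a mouse embryonic stem cell (ESC) line, at passages 37 to 40. ESCs were kept pluripotent with leukemia inhibitory factor (LIF), and neuronal cells (NCs) were grown as monolayers without LIF in 1 µM RA for 48 h. Both groups come from 1 cell line, and RA and the loss of LIF were applied together, so their parts in a difference cannot be told apart.

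The nuclear pore is built from stacked rings of scaffold nucleoporins, with the Y complex on its outer faces and the inner ring between them. Nucleoporins rich in phenylalanine and glycine fill the channel and bind the carriers, while others form filaments on the cytoplasmic side and a basket on the nuclear side. Importins release cargo in the nucleus when they meet Ran loaded with GTP, and exportins need the same form of Ran to hold theirs. In stem cells and neural progenitors, single nucleoporins and importin α subtypes have been linked to the choice between self-renewal and differentiation.

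Each gene had 1 value per condition, the FPKM (a fragment count corrected for transcript length and library size) that the authors' Cuffdiff run gave for the 3 samples together. No value of a single sample was used, so no SD, interval or test stands beside any difference, and depth per sample is unknown. Where FPKM values stand in pairs, the ESC value comes first. A difference is given as the log2 ratio of the NC to the ESC value, negative where NCs were lower. Genes were counted against fold limits of 1.5 and 2, among entries with a mean FPKM over both conditions of at least 1. In bulk RNA, fewer cells of a type and less RNA per cell cannot be told apart. The FPKM of all entries summed to 770592 in ESCs and 628679 in NCs, and making these sums equal would add 0.29 to every log2 ratio. Members between -0.29 and 0 thus change direction with that choice of scale, whereas the position of a gene among all entries and the difference between a pair of genes do not.

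The labels were checked on marker genes. All 8 pluripotency markers were at least 2-fold lower in NCs (Pou5f1, the Oct4 gene, 832 and 37.1 FPKM), all 5 RA response genes were at least 2-fold higher (Cyp26a1 0.874 and 215 FPKM), and so were 4 of 5 neural progenitor markers (Pax6 3.64 and 65.2 FPKM). Among the neuronal markers above the filter, 3 were at least 2-fold lower in NCs (Tubb3, Elavl3 and Neurod1; Tubb3 at 33.4 and 7.54 FPKM). Dcx stood at 0.334 FPKM in NCs and Rbfox3 at 0.832 FPKM, both under the filter value in the group named neuronal cells. Extraembryonic endoderm markers were higher in NCs for 4 of 5 at the 2-fold limit (Gata6 2.37 and 5.48 FPKM), and their summed level was 16.3 and 34.0 FPKM. Of 4 fibroblast markers above the filter, 2 (Col1a1 and Col1a2) were at least 2-fold higher and 1 (Thy1) at least 2-fold lower, and Meox1 was the 1 mesoderm marker above the filter, higher in NCs. The part of such cells in the values below was not tested.

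Of the 45 genes, 43 passed the filter. The 2 that did not were Nup210l, a relative of Nup210 known from the germ line, at 0.351 and 0.149 FPKM, and Kpna7, the importin α of oocytes and early embryos, at 0.0420 and 0.0282 FPKM. Among the 43, ESC levels ran from 9.05 FPKM for Xpo7 to 446 FPKM for Ran, a 49.3-fold range. The order of levels in ESCs was led by Ran and Kpna2, an importin α, at 446 and 435 FPKM, ahead of Kpnb1, which is importin β1, at 234 FPKM and Ipo5 at 208 FPKM. Ran and Kpna2 were above 98.4% and 98.3% of all entries that pass the filter. With 1 value per condition, it cannot be said which neighbours in this order differ beyond their spread. The 20 nucleoporins, Tpr included, lay lower and closer together, from 14.3 FPKM for Nup35 to 101 FPKM for Nup85, a 7.03-fold range. They summed to 907 and 723 FPKM, and the 23 carriers with Ran summed to 2199 and 1922 FPKM.

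**Figure D1:**
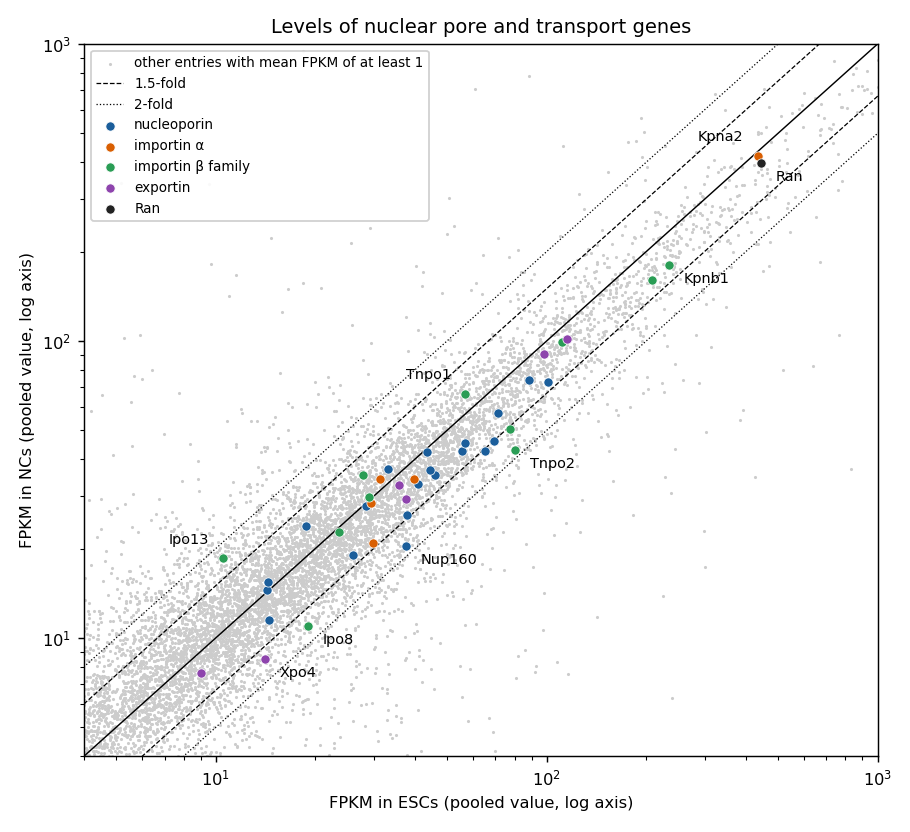
FPKM in ESCs (x axis) against FPKM in NCs (y axis), both on log axes, for the 43 genes that pass the filter, coloured by class, with other entries in grey; the solid line marks equal deposited values and broken lines mark 1.5-fold and 2-fold. The genes follow the diagonal over the range from Xpo7 at 9.05 FPKM to Ran at 446 FPKM, and none lies beyond the 2-fold lines of the deposited scale, which Ipo13 passes with equal sums.

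The mRNAs of the 43 genes differed little in amount between the conditions. On the deposited scale none of the 43 genes differed by 2-fold, whereas 9.93% of all 12784 entries that pass the filter were at least 2-fold lower in NCs and 11.1% at least 2-fold higher. At the 1.5-fold limit 6 of 43 (14.0%) were lower, beside 18.8% of all entries, and 1 of 43 (2.33%) was higher, beside 19.3%. The other 36 (83.7%) stayed within 1.5-fold, beside 61.9% of all entries. These genes are well expressed, and among the 7019 entries with a mean of at least 10 FPKM the share within 1.5-fold was 71.8%, beside 35 of 42 genes (83.3%). Rescaling to equal sums left 2 genes at least 1.5-fold lower, Tnpo2 and Nup160, and put 3 at least 1.5-fold higher, Ipo13, Nup62cl and Ipo9. The share of all entries past this limit was not computed with equal sums. Their median log2 ratio was then 0.26, so these counts have no background to be read against.

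Within this narrow range most values were lower in NCs. On the deposited scale 34 of 43 genes (79.1%) had the lower FPKM in NCs, beside 52.4% of all entries, and with equal sums the number was 20 of 43 (46.5%), beside 32.8% of all entries. The median log2 ratio was -0.26 on the deposited scale and 0.03 with equal sums. For all entries it was -0.04 and 0.26, so the median of the genes lay 0.22 below that of all entries on either scale. Placed among all entries, 33 of the 43 were below the median ratio, and 28 of 42 were below it among entries with a mean of at least 10 FPKM. The SD over genes was 0.34 for the 43, 1.17 for all entries and 0.95 for entries with a mean of at least 10 FPKM. At that level 33 of 42 genes (78.6%) were lower on the deposited scale, beside 58.9% of entries. The median of the genes minus that of all entries was then -0.16. Nucleoporins had a median of -0.32 with 16 of 20 lower, and 12 of 20 lower with equal sums. Carriers with Ran had a median of -0.17 with 18 of 23 lower, and 8 of 23 lower with equal sums.

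**Figure D2:**
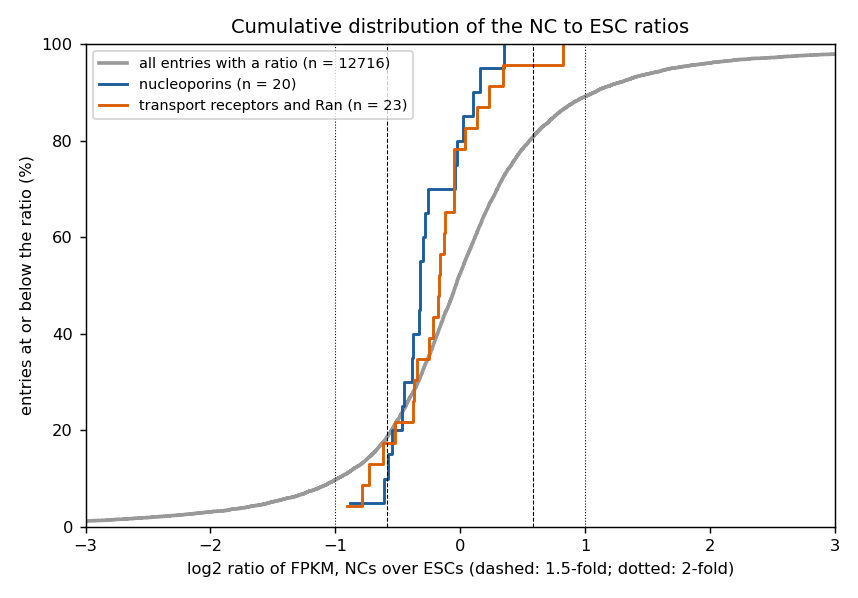
Percentage of entries (y axis) at or below a given log2 ratio of NC to ESC FPKM (x axis) for 20 nucleoporins, 23 transport receptors with Ran and all 12716 entries with a ratio; dashed and dotted lines mark 1.5-fold and 2-fold on the deposited scale. Both coloured curves are steeper than the grey one and end at 0.35 (Nup62cl) and 0.82 (Ipo13), while the grey curve runs past both 2-fold lines; making the sums equal would move all 3 curves to the right by 0.29.

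The 6 genes grouped here under the Y complex were all lower in NCs on both scales. Of all entries, 52.4% were lower on the deposited scale and 32.8% with equal sums. Nup98 was placed in another group, although its gene also encodes the Y complex subunit Nup96. The log2 ratio of Nup98 was -0.03 on the deposited scale and 0.26 with equal sums. The Y complex is the outer scaffold of the pore, which is also used at kinetochores in mitosis, and its subunits are known to assemble in equal copy number. Nup160, at the hub of the Y, was at 37.7 and 20.4 FPKM, a log2 ratio of -0.88 (1.84-fold lower), and 11.7% of all entries had a lower ratio. Nup43, a propeller subunit of a short arm, was at 69.3 and 46.2 FPKM, with a log2 ratio of -0.58 that fell just short of the 1.5-fold limit. Nup133, at the tip of the stem and needed for mouse ESCs to complete neural differentiation, was at 37.8 and 25.9 FPKM, with a log2 ratio of -0.55. Nup85, Nup107 and Nup37, which complete this group of 6, had log2 ratios of -0.47, -0.39 and -0.32. The median log2 ratio of all 6 was -0.51 on the deposited scale and -0.21 with equal sums, and their values summed to 358 and 253 FPKM. The other 3 subunits, whose names the rule did not take, were also lower on the deposited scale: Seh1l was at 91.6 and 52.1 FPKM (log2 ratio -0.81), Ahctf1 (ELYS, which starts pore assembly on chromatin) was at 31.1 and 26 FPKM (-0.26), and Sec13, shared with the coat of secretory vesicles, at 80.9 and 78.0 FPKM (-0.05). Of these 9 genes, Nup98 not counted, 7 were lower with equal sums, Ahctf1 and Sec13 being the exceptions. Nup133 shares 11.3% of its 50-base words (stretches of its transcript) with other annotated genes, so its value is uncertain.

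Promoters of all members were searched for motifs, those of the Y complex group among them. RefSeq windows on GRCm38.p6, from 250 bases before to 50 bases after the start, matched 35 of the 45 genes, 34 of them above the filter. Cse1l, Kpna1, Kpna3, Kpna6, Nup210l, Nup35, Nup43, Nup85, Xpo4 and Xpo7 had no entry. Of the Y complex group of 6, Nup160, Nup133, Nup107 and Nup37 were matched. The 250 bases before the start are shown for Nup160, which had the lowest ratio of the 20 nucleoporins, and for Nup107, the Y complex gene that held the NRF1 motif, with matches to the motifs below in capitals. Nup160 lies on chr2:90677215-90736328 (plus strand) and Nup107 on chr10:117750621-117792705 (minus strand). The windows printed are chr2:90676965-90677214 and chr10:117792706-117792955.
Nup160: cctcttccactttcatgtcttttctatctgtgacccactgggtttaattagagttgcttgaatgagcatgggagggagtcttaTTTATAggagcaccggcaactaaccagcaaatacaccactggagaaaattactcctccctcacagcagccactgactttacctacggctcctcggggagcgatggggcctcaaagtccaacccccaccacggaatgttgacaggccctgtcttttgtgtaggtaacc
Nup107: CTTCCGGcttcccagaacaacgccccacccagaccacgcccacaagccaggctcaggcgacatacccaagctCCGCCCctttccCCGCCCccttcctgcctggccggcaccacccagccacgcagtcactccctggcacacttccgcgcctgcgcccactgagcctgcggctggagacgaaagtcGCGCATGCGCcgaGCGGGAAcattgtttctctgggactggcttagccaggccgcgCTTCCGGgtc
Both strands were searched, and a match on the other strand is printed as its reverse complement. In Nup107 the capitals mark the ETS motif CCGGAAG near both ends of the window. They also mark the GC box GGGCGG bound by Sp factors. Nearer to the start stand overlapping NRF1 cores (GCATGCGC). The E2F motif TTCCCGC follows them. In Nup160 the capitals mark TATAAA on the other strand, from base -167 before the start, and no GC box, ETS, NRF1 or E2F motif stood in its window.

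Over the whole set no motif was shared by all members. The NRF1 core was in the windows of 3 of 34 genes (Nup107, Nup50 and Ran; 8.82%), beside 6.26% of the windows of 9351 genes that pass the filter. ETS was in 6 of 34 (17.6%, beside 20.1%), the GC box in 25 (73.5%, beside 71.1%), CCAAT of NF-Y in 19 (55.9%, beside 43.5%) and an E2F motif (TTCCCGC or TTGGCGC) in 5 (14.7%, beside 14.7%). Apart from CCAAT, these shares lay near those of all genes. The E-box CACGTG was in 8 of 34 (23.5%, beside 12.2%) and AAGATGGCG of YY1 in 4 (11.8%, beside 3.64%), all 4 of them nucleoporins: Nup188, Nup205, Nup50 and Nup88. TATAAA was in 4 (11.8%, beside 8.37%). The RA response elements DR5 and DR2, direct repeats of the retinoid receptor half-site with spacers of 5 and 2 bases, were in 0 of 34 windows and in 0.0321% and 0.107% of those of all genes. The median GC content of the windows was 64.8% for the 34 genes and 61.3% for all. In the 4 matched windows of the Y complex group, ETS, the GC box and an E2F motif were each in 2. NRF1, CCAAT and TATAAA were each in 1, and the E-box and the YY1 motif in 0. With 4 windows these counts are too few to set against the shares of all genes. A match is a run of letters and not a bound site.

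Nucleoporins of the inner ring and channel were mostly lower on the deposited scale. In the inner ring, which joins the scaffold to the membrane, Nup188 was at 65.2 and 42.7 FPKM (log2 ratio -0.61, 1.53-fold lower). Its large homologue Nup205 was at 44.4 and 36.7 FPKM (-0.28), and Nup155 and Nup93 had log2 ratios of -0.45 and -0.32. Nup35 was the exception, at 14.3 and 14.5 FPKM (0.02), and 83.05% of its 50-base words are shared with the annotated gene Gm4353, so its value is uncertain. The inner ring thus had 4 of 5 lower, beside 52.4% of all entries, with a median of -0.32. When sums were equal, 3 of 5 were lower, beside 32.8% of all entries, with a median of -0.02. Nup54, of the channel trimer, was at 46.1 and 35.3 FPKM (-0.38). Its partner Nup58, listed under its older symbol Nupl1, was at 128 and 62.0 FPKM (-1.04, 2.06-fold lower), and Nup62, the third subunit, was not analysed here.

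The peripheral nucleoporins varied by gene. On the cytoplasmic side Nup214 was at 14.5 and 11.5 FPKM (log2 ratio -0.33) and its partner Nup88 at 88.2 and 73.8 FPKM (-0.26), which turns to the other direction with equal sums. Aaas (aladin), a subunit outside the rule that faces the cytoplasm, was at 81.1 and 50.5 FPKM (-0.68, 1.61-fold lower). The other genes listed for that side outside the rule were closer to level. Gle1, Ranbp2 and Nupl2 had log2 ratios of -0.24, -0.09 and 0.01. In the nuclear basket Nup153, which binds chromatin and silences developmental genes in mouse ESCs, was at 40.8 and 33.0 FPKM (-0.30). Tpr, the rod of the basket, was level at 43.4 and 42.3 FPKM (-0.04), and Nup50, which helps to release importin α, was at 33.2 and 37.0 FPKM (0.16). The basket median of -0.04 became 0.26 with equal sums. Nup98, found on both faces of the pore, was at 28.5 and 27.9 FPKM (-0.03), with its partner Rae1 at 87.5 and 67.4 FPKM (-0.38).

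Among membrane nucleoporins, Nup210 (gp210), known to be needed for neural and muscle differentiation, was at 14.4 and 15.4 FPKM (log2 ratio 0.10). Ndc1 was listed under its older symbol Tmem48, at 34.3 and 23.2 FPKM (-0.56), and Pom121 at 30.1 and 34.4 FPKM (0.19). The 3 membrane proteins thus did not move in 1 direction. Nup62cl, an X-linked relative of Nup62, had the highest ratio of any nucleoporin, with 18.8 and 23.9 FPKM (0.35), above 72.5% of all entries.

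**Figure D3:**
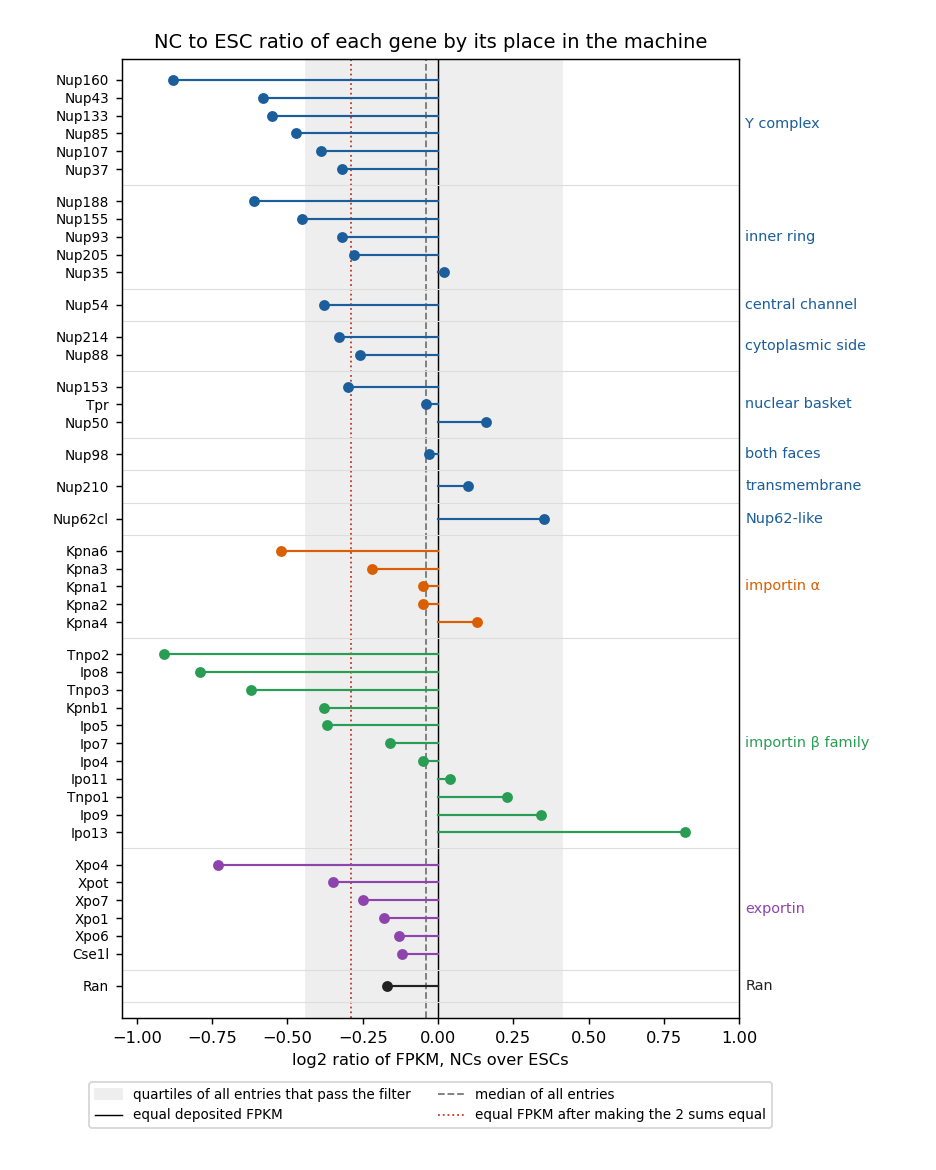
Log2 ratio of NC to ESC FPKM (x axis) of each of the 43 genes, grouped by place in the machine; grey shading spans the quartiles of all entries (-0.44 to 0.41), the dashed line their median and the dotted line the point of equal FPKM once both sums are made equal. All 6 genes grouped as Y complex lie to the left of the dotted line and so are lower on either scale. Exportins are all below 0, and 2 of 6 lie beyond the dotted line. Of all entries, 52.4% were lower on the deposited scale and 32.8% with equal sums.

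Importin α proteins, the adaptors that read the classical nuclear localization signal, were dominated by Kpna2 in both conditions. Kpna2, which carries Oct4 into the nucleus of ESCs, was at 435 and 420.1 FPKM (log2 ratio -0.05). It made up 76.9% of the summed importin α FPKM in ESCs and 78.1% in NCs. A change from Kpna2 to Kpna1 has been described for neural differentiation of mouse ESCs, and at 48 h the share of Kpna1 was 5.22% in ESCs and 5.30% in NCs, at 29.5 and 28.5 FPKM. Kpna6 was the adaptor with the lowest ratio, at 29.9 and 20.8 FPKM (-0.52, 1.44-fold lower), its share going from 5.29% to 3.88%. Kpna3 was at 39.7 and 34.2 FPKM (-0.22) and its close relative Kpna4 at 31.3 and 34.2 FPKM (0.13), so Kpna3 led in ESCs and the pair was level in NCs. Shares do not depend on the scale, but the family median of -0.05 became 0.24 with equal sums. The value of Kpna2 is uncertain, since 92.37% of its 50-base words are shared with 13 other annotated genes.

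The importin β family, whose members bind cargo themselves or through an adaptor, spread the most, with an SD over 11 genes of 0.52. Its 2 most abundant genes stayed within 1.5-fold: Kpnb1, the partner of importin α that has been linked to nuclear import of FGFR1, was at 234 and 179.7 FPKM (log2 ratio -0.38), and Ipo5, a carrier of ribosomal proteins and histones, at 208 and 161 FPKM (-0.37). Kpnb1 took 26.7% of the family sum in ESCs and 25.1% in NCs, and Ipo5 23.7% and 22.4%. The sum itself was 878 and 717 FPKM. On the deposited scale 7 of 11 were lower, beside 52.4% of all entries, with a median of -0.16. With equal sums 5 of 11 were lower, beside 32.8% of all entries, with a median of 0.13.

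Transportins differed in direction on both scales. Tnpo2 was at 80.5 and 43.0 FPKM, a log2 ratio of -0.91, the lowest of the 43 genes. Tnpo1, its close homologue, which imports hnRNP proteins through a proline-tyrosine signal, was at 56.7 and 66.5 FPKM (0.23). Their log2 ratios differed by 1.13, and Tnpo1 made up 41.3% of the pair in ESCs and 60.8% in NCs, so the more abundant of the 2 mRNAs was Tnpo2 in ESCs and Tnpo1 in NCs on any scale. Tnpo3, the carrier of splicing factors of the SR family, was at 77.7 and 50.6 FPKM (-0.62, 1.53-fold lower). Tnpo1 shares 14.08% of its 50-base words with 1 other gene, and 11.69% of the exon length of Tnpo2 is overlapped by other annotated genes.

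Other carriers had lower or higher values according to the gene. Ipo8, which imports Smad and Argonaute proteins, was at 19.0 and 11 FPKM (log2 ratio -0.79, 1.73-fold lower), and its close homologue Ipo7 at 111 and 99.3 FPKM (-0.16). Ipo7 was thus 5.85 times as abundant as Ipo8 in ESCs and 9.06 times in NCs. Ipo4 and Ipo11 were level, with log2 ratios of -0.05 and 0.04, though 59.55% of the words of Ipo4 are shared with the overlapping gene Gm49378. Ipo9, a carrier of actin and histones, was at 27.8 and 35.3 FPKM (0.34). Ipo13 was the 1 gene of the 43 past 1.5-fold in the upward direction, at 10.5 and 18.5 FPKM (0.82, 1.76-fold higher), above 86.1% of all entries. It imports the SUMO enzyme Ubc9 and homeodomain proteins such as Pax6 and exports the translation factor eIF1A, and its share of the family sum was 1.2% in ESCs and 2.59% in NCs. With equal sums its log2 ratio was 1.11, past 2-fold.

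Promoter windows of the transportins and Ipo13 are shown because these genes held the lowest and the highest ratio, in GRCm38.p6 and in the direction of the gene, with motif matches in capitals. The gene Tnpo2 lies on chr8:85036915-85057583 (plus strand), Tnpo1 on chr13:98839019-98926384 (minus strand) and Ipo13 on chr4:117894486-117914999 (minus strand). The windows are chr8:85036643-85036892, chr13:98926385-98926634 and chr4:117915000-117915249, the first of 2 entries for each of the transportins.
Tnpo2: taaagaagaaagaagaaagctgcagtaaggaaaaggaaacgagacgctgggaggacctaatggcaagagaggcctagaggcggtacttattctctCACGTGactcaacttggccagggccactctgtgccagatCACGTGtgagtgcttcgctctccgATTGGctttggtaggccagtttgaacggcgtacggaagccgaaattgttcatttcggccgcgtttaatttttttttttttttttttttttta
Tnpo1: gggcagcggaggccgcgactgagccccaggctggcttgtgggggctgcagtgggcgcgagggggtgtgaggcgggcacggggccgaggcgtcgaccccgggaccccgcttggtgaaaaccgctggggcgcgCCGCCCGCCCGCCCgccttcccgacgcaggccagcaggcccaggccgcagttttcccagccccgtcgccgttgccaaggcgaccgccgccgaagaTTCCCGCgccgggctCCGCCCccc
Ipo13: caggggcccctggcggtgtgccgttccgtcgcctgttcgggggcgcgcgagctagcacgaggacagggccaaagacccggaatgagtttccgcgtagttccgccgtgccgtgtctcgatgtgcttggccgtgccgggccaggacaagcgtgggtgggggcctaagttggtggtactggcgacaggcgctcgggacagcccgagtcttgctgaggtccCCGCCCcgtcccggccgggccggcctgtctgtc
Capitals in Tnpo2 mark a pair of E-boxes (CACGTG) and CCAAT on the other strand. In Tnpo1 they mark GC boxes, 3 of which overlap, and the E2F motif TTCCCGC. Ipo13 held a single GC box, from base -33 before the start.

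**Figure D4:**
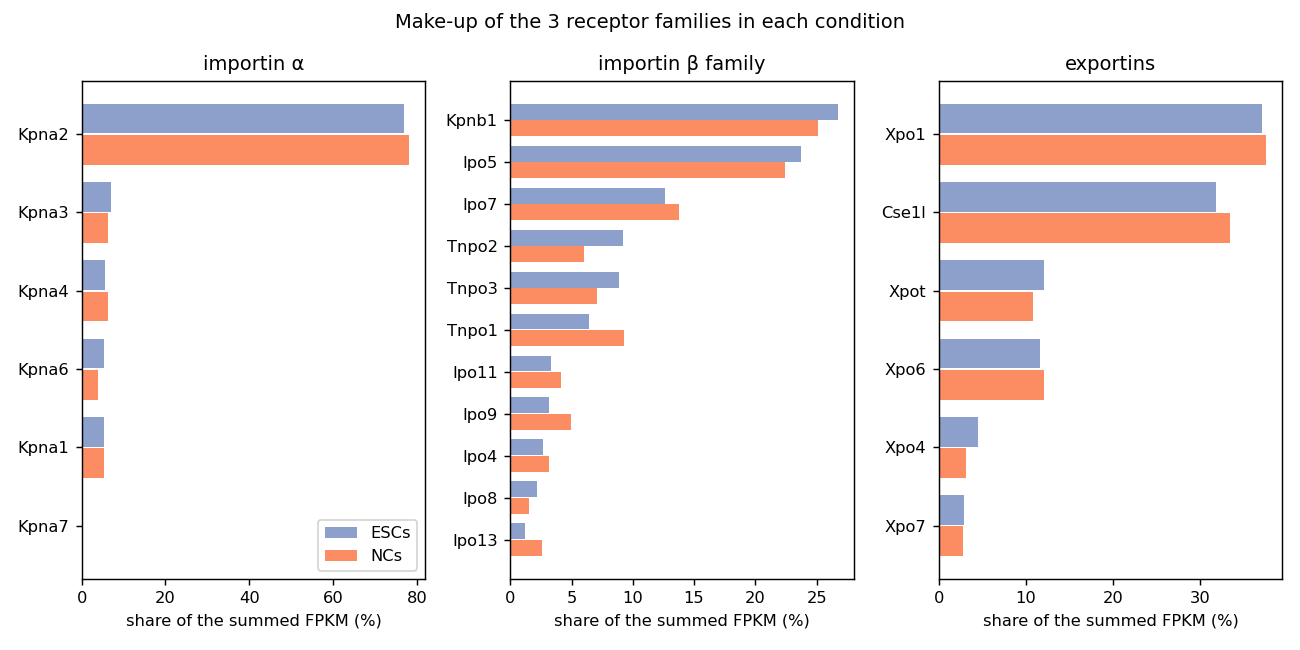
Share of the summed FPKM of importin α genes, importin β family genes and exportins (x axes, %) taken by each gene in ESCs and NCs; each bar is 1 pooled value. Kpna2 takes over 76% of importin α in both conditions, Tnpo1 and Tnpo2 exchange places, and Xpo1 and Cse1l lead the exportins in both.

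Exportins were lower in NCs on the deposited scale in 6 of 6 cases, beside 52.4% of all entries, with a median log2 ratio of -0.21. With equal sums 2 of 6 were lower (median 0.08), beside 32.8% of all entries. All 6 lay below the median ratio of all entries. Xpo1, the receptor of the leucine-rich export signal, was at 115 and 102 FPKM (log2 ratio -0.18), and Cse1l, which returns importin α to the cytoplasm, at 98.4 and 90.5 FPKM (-0.12). They made up 37.1% and 31.8% of the exportin sum in ESCs and 37.6% and 33.5% in NCs, so the order of exportins was led by the same pair. Xpo4, which exports eIF5A and can import Sox2, had the lowest ratio, at 14.1 and 8.47 FPKM (-0.73, 1.66-fold lower). Xpot, the tRNA exporter, was at 37.5 and 29.3 FPKM (-0.35), and 14.37% of its words are shared with other genes. Xpo6, which exports actin with profilin, and Xpo7 had log2 ratios of -0.13 and -0.25, both of which turn positive with equal sums. The microRNA exporter Xpo5, outside the rule, was level at 29.9 and 28.9 FPKM (-0.05), and Ranbp17, a relative of Xpo7, was at 15.0 and 8.35 FPKM (-0.84).

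Ran, which sets the direction of transport, was at 446 and 397 FPKM, a log2 ratio of -0.17 that becomes 0.12 with equal sums, and 15.42% of its words are shared with other genes. The enzymes that load and discharge it differed: Rcc1, the exchange factor on chromatin, was level at 73.9 and 72.8 FPKM (-0.02), and Rangap1, which triggers GTP hydrolysis in the cytoplasm, was at 131 and 98.9 FPKM (-0.40). Ranbp1, its cofactor, was at 342 and 385 FPKM (0.17), and Nutf2, which returns Ran to the nucleus, at 283 and 274 FPKM (-0.05). The lowest ratio in the Ran cycle was that of Rangrf (Mog1), a Ran-binding factor, at 81.7 and 37.6 FPKM (-1.12, 2.17-fold lower). Of 20 pathway genes outside the rule that passed the filter, 5 were at least 1.5-fold lower (Aaas, Nupl1, Ranbp17, Rangrf and Seh1l; 25%, beside 18.8% of all entries) and 0 at least 1.5-fold higher. At the 2-fold limit 2 of the 20 were lower, Nupl1 and Rangrf (10%, beside 9.93% of all entries), and 0 were higher, beside 11.1%. The median log2 ratio of the 20 was -0.16 on the deposited scale and 0.13 with equal sums.

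Across the 43 genes the ratio was only loosely related to level or length. Spearman's rho between the log2 ratio and the log2 mean FPKM was -0.15, and between the log2 ratio and the length of the longest protein-coding transcript it was 0.02. Level and length themselves had a rho of -0.36. All points come from the same 2 pooled columns, so these are descriptions of this table. When the genes that share at least 10% of their words with another gene were left out, 35 remained, with a median log2 ratio of -0.28 and 28 lower in NCs.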

How the data were processed

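RNA was sequenced from 3 ESC and 3 NC samples with TruSeq libraries on an Illumina instrument. Reads were aligned to mm10 by the authors with Bowtie2 2.1.0 under TopHat2 2.0.8, transcripts were assembled with Cufflinks 2.0.2 and merged, and Cuffdiff compared the conditions. They deposited 1 FPKM value per gene and condition, estimated over the 3 samples of a group, and the NC heading, which reads FPK, was taken as FPKM. Reads of near-identical genes may be split between them, and strandedness and the version and normalization setting of Cuffdiff were not given in the sources used here. The columns of the authors' own comparison (fold change, test statistic, p and q) were not used.

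Ratios were computed without a pseudocount for entries with a mean FPKM of at least 1, and role groups and marker lists came from textbook knowledge. Every gene that the naming rule selects is accounted for, and other genes named belong to those lists or, for Fgfr1, Rxra and Nr4a1, to the question of the study. The result for 1 of the marker genes is not reported here. The genes, lists and limits were chosen with earlier results of these data known. Positions, overlaps and shared 50-base words came from GENCODE M21 on GRCm38, and promoters from RefSeq on GRCm38.p6. The computation was tested on simulated data. Alternatives were pseudocounts of 0.1 and 1, equal sums, centring, other filters, a smaller fold limit and, chosen after seeing the data, leaving out genes with shared words. Python 3.11.15, numpy 2.4.6, pandas 2.3.3, scipy 1.17.1 and matplotlib 3.10.9 were used.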

Additional observations from a re-analysis of the deposited data

How the results depend on the processing

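Pseudocounts of 0.1 and 1 FPKM, centring on the median and a mean of at least 10 FPKM kept the direction of the median and counts within 1.5 times the reported ones. Making the sums equal adds 0.29 to every log2 ratio by construction. It left 2 genes at least 1.5-fold lower in NCs in place of 6 and gave 3 at least 1.5-fold higher in place of 1. It also gave 1 at least 2-fold higher (Ipo13) in place of 0, and lowered the number with a lower value from 34 to 20. The shares of all entries past these fold limits were not computed with equal sums. The share of all entries with a lower value was 52.4% on the deposited scale and 32.8% with equal sums. The median log2 ratio of all 43 genes turned from -0.26 to 0.03, that of the nuclear basket to 0.26, importin α to 0.24, the importin β family to 0.13 and exportins to 0.08, whereas the Y complex, inner ring and cytoplasmic side stayed below 0 or at it (-0.21, -0.02 and -0.00). Without the filter 1 gene, Nup210l, was at least 2-fold lower. The smaller fold limit tried, 5/4-fold, gave 17 genes lower and 3 higher, beside 31.0% and 28.8% of all entries. Leaving out genes with shared words, an alternative chosen after the data were seen, gave a median of -0.28 for all genes, and that of the importin β family went from -0.16 to -0.37 without Ipo4 and Tnpo1. No paired analysis was possible because the table holds 1 pooled value per condition, and for the same reason no sample could be left out in turn. Depth per sample is unknown, so the precision of genes at low FPKM cannot be stated.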

Other observations

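Genes that use the same gate without belonging to the pore or the carriers behaved differently from one another. On the deposited scale, 6 of 13 mRNA and snRNA export genes above the filter were lower in NCs, beside 52.4% of all entries. The other 7 were higher, and the median log2 ratio of the 13 was 0.01, or 0.30 with equal sums. Ddx19a, the helicase that strips export factors at the cytoplasmic side of the pore, was at 17.9 and 27.8 FPKM (log2 ratio 0.64), the 1 gene of this list past 1.5-fold. Ddx39b, the helicase of the TREX complex, was at 142 and 211 FPKM (0.57), and the bulk mRNA exporter Nxf1 at 47.6 and 55.8 FPKM (0.23). Ddx19b is listed at 0 in both conditions with a failed estimate.

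In the nuclear envelope list 3 of 11 genes above the filter were at least 1.5-fold lower in NCs on the deposited scale (27.3%, beside 18.8% of all entries). Lmna, which encodes lamins A and C, was at 15.4 and 7.79 FPKM (log2 ratio -0.99). Sun1, which links the envelope to the cytoskeleton, was at 40.2 and 20.1 FPKM (just under 2-fold lower), and Banf1, which tethers chromatin to the envelope, at 429 and 271 FPKM (-0.66). Lmnb1 was level at 139 and 147 FPKM (0.08), and Sun2 was at 5.91 and 8.25 FPKM (0.48). Fgfr1, whose protein the study treats as acting in the nucleus, was at 31.0 and 44.1 FPKM (0.51), and the nuclear receptor genes Rxra and Nr4a1 were at 5.17 and 19.2 FPKM and at 14.5 and 5.24 FPKM.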
